A study of Mus musculus with 8 samples.

Results

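Fatty acid oxidation and peroxisome genes were followed in mouse kidneys from embryos of day 16.5. The set held 34 genes, chosen by name from the enzymes and carriers of mitochondrial and peroxisomal fatty acid oxidation, of 13987 named genes that were tested. All 34 had at least 1 probe on the array, and 33 passed the filter on dim probes. The 4 wildtype (WT) samples were kidney pairs of C57BL/6 embryos. The 4 knockout (KO) samples were kidney pairs of C57BL/6 embryos in which DOT1, taken here as the histone methyltransferase gene Dot1l, was removed conditionally in Six2-positive nephron progenitor cells, so that ureteric bud, stromal, endothelial and blood cells of the same kidney kept the gene. Each sample was labelled with Cy5 and hybridised against Cy3-labelled RNA of the WT1 kidneys, and values are log2 ratios over that reference. A difference between groups is KO minus WT on this scale, with the moderated standard error (SE) of limma and a p-value adjusted by Benjamini-Hochberg over all 13987 genes, for which the threshold was 0.05. The labels give the genotypes as control and DOT1-null and do not say whether the controls carried a Cre allele. In whole kidneys fewer cells of a type and less RNA per cell cannot be told apart.

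Cells burn fatty acids by first binding them to coenzyme A, then moving long chains into mitochondria on carnitine, and then removing acetyl units in a cycle of dehydrogenation, hydration, dehydrogenation and thiolysis. Electrons of the initial dehydrogenation reach the respiratory chain through the electron transfer flavoprotein. Peroxisomes shorten very long and branched chains by a parallel set of enzymes and break down the peroxide that this produces with catalase. In the kidney both organelles are most abundant in the proximal tubule, which takes much of its energy from fatty acids, and many of these genes are targets of the nuclear receptor PPAR alpha.

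Of the 33 genes, 2 were higher in KO and none was lower at an adjusted p of 0.05 (limma, 4 arrays per group). They were Hao2, which encodes a peroxisomal hydroxyacid oxidase (0.74 ± 0.16, SE; 1.67-fold; adjusted p = 0.0362), and Acadl, which encodes the long-chain acyl-CoA dehydrogenase of mitochondria (0.41 ± 0.09; 1.33-fold; adjusted p = 0.0436). The 2 genes were 6.06% of the 33, where 1.57% of all genes were called higher and 0.543% lower. The other 31 genes did not pass, and 9 of the 33 had an unadjusted p under 0.05 (27.3%, all higher in KO), against 11.1% of all genes in that direction and 3.37% in the other. The difference was above 0 for 30 of the 33 genes (90.9%), against 59.3% of all genes. Their median difference was 0.15, and that of all genes was 0.03. Differences ranged from -0.10 for Acads to 0.77 for Acsm2, and SEs from 0.08 to 0.31. The set was not tested as a set, since its genes vary together and were chosen with earlier results of these data known.

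**Figure D1:**
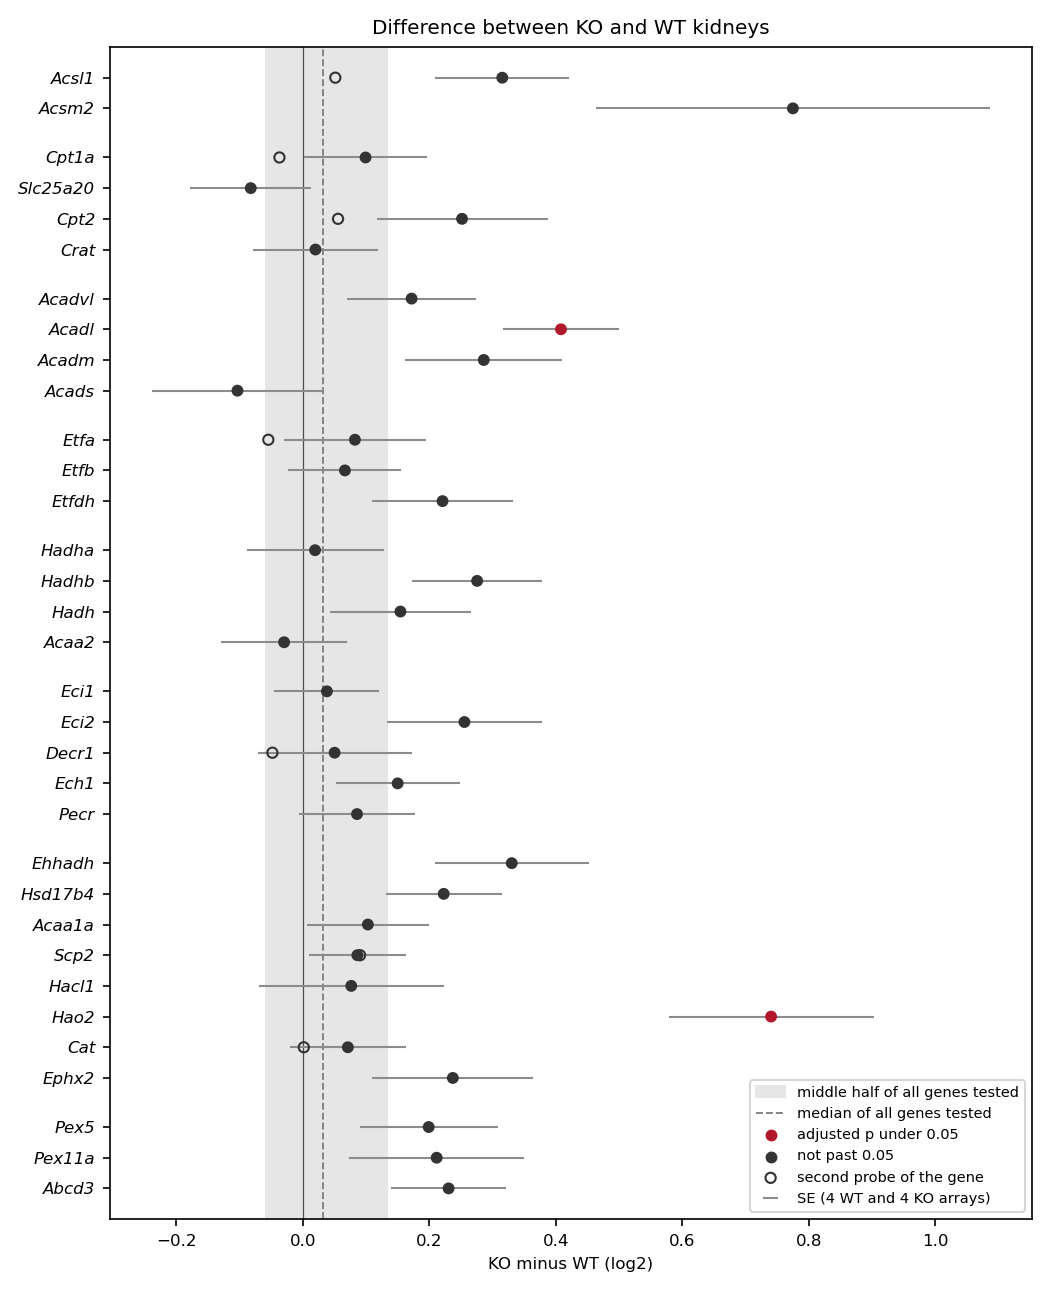
Each point is the KO minus WT difference (log2, x axis) of a gene, in the order in which the text describes the roles, with its SE as a bar (4 WT and 4 KO arrays), and open circles are other probes of the same gene. Hao2 (0.74) and Acadl (0.41) are the red points past an adjusted p of 0.05, and the dashed line and grey band are the median (0.03) and middle quartiles of all 13987 genes.

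The quality of the arrays bears on values of this size. The median red signal of negative-control spots was 1361 scanner units on WT1, 478.25 on KO1 and 58 to 61 on the other 6 arrays. Over all spots that are not controls the median was 5071.5 units on WT1, 792 on KO1 and 72.5 to 80 on the other 6. On WT1 the probes of Hao2 and Acadl read 3402.25 and 3316 units, below the median of that array. The green signal of negative-control spots was raised too, with medians of 412 units on WT1, 111.5 on KO1 and 21 to 26 on the other 6. The WT1 array held the same RNA in both colours, so that a log2 ratio of 0 is its nominal value. On it 28 of the 33 genes lay below 0, from -0.49 to 0.33 with a median of -0.21, while the median of all genes there was -0.07. Y-linked and Xist probes marked all 4 KO embryos and WT2 as male and the other 3 WT embryos as female. Sex and group can thus be told apart through WT2 alone. All arrays shared 1 slide, with every WT array in row 1 and every KO array in row 2, so row and group cannot be told apart. The submitters call the kidney pairs biological replicates, and their number limits the precision.

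The promoters of Hao2 and Acadl are shown because these genes carry the result, and because their letters differ. They are the 250 bases before the start site in RefSeq's GRCm38.p6 table, at chr3:98893231-98893480 and chr1:66863310-66863559, both on the minus strand. Capitals mark motifs found on either strand, and no matches overlap in these windows. GC boxes, bound by Sp1-type factors, were searched as GGGCGG. The hexamer read by nuclear receptors was searched as AGGTCA. The CCAAT boxes were searched by their letters and TATA boxes as TATAAA. The Hao2 window held none of these motifs and so has no capitals.
Hao2: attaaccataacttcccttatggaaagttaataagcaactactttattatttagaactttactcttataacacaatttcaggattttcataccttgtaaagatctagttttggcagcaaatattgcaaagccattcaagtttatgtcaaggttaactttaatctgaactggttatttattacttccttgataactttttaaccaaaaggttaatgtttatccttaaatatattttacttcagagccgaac
Acadl: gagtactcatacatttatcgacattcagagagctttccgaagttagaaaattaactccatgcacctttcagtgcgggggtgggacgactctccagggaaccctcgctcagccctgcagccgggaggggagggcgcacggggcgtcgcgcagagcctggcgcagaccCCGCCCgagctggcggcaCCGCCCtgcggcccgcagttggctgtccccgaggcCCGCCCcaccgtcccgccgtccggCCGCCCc
The Acadl window held 4 GC boxes and 25 CpG dinucleotides, and 68% of its bases were G or C. The Hao2 window held 1 CpG, and 28.4% of its bases were G or C. Promoters of 29 of the 34 genes were matched by symbol. A gene with several listed promoters was counted if any of them held the motif, whereas shares of all are per promoter. GC boxes stood in 20 of the 29 (69%, against 32.7% of 32851 promoters of the same length), CCAAT boxes in 13 (44.8%, against 33.8%) and TATAAA in 1, that of Acsm2 (3.45%, against 12.4%). The median CpG count was 12 in the 29 and 6 in all promoters.

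The hexamer AGGTCA is the unit from which PPAR and its partner RXR build their binding site, a direct repeat with 1 base between the copies. The full repeat stood in none of the 29 promoters and in 0.0335% of all, and the single hexamer in 6 of the 29 (20.7%), against 14% of all. The 6 windows are shown, with the hexamer in capitals, because they hold this single unit, though not the full repeat.
Acadm: gTGACCTtcgggctccggtgacactg
Acadvl: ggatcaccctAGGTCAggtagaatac
Cpt1a: gtttccttacTGACCTcctccccgca
Cat: tgactctcagAGGTCAgagaacacca
Scp2: ctaacacagtAGGTCAaaagaaccca
Acot12: cgtaggacccTGACCTctcacctcct
They lie at chr3:153944868-153944893 (-), chr11:70015500-70015525 (-), chr19:3323197-3323222 (+), chr2:103485342-103485367 (-), chr4:108118641-108118666 (-) and chr13:91741401-91741426 (+) in that order. Of these 6 genes 5 were tested and none passed, Acot12 being too dim to test, and neither Hao2 nor Acadl had the hexamer in its window. Since 1.57% of all genes were called higher and 0.543% lower, 5 genes are too few to relate the hexamer to the calls. Sites that differ from these letters, or that lie outside the promoters searched, were not looked for. A match is a string of letters, not a site shown to be bound.

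Among the enzymes that bind fatty acids to coenzyme A, Acsm2, a medium-chain synthetase of the kidney, had the largest difference of the set, 0.77 ± 0.31 (SE; adjusted p = 0.264), and did not pass. Its log2 ratios were -0.21, -0.04, 0.03 and -1.04 in WT1 to WT4 and -0.00, 0.02, 1.51 and 0.32 in KO1 to KO4. WT4 was far below and KO3 far above the other arrays, and the groups overlapped. Acsl1, the long-chain synthetase, had ratios of -0.29, -0.23, 0.01 and -0.24 in WT and 0.17, -0.06, 0.35 and 0.06 in KO, a difference of 0.32 ± 0.11 (adjusted p = 0.168). WT3 lay above KO2, so that these groups overlapped too. The other Acsl1 probe, which was dimmer, gave 0.05.

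The carnitine shuttle showed no called change. Cpt1a, the carnitine palmitoyltransferase of the outer membrane and the regulated step of entry, differed by 0.10 ± 0.10 (adjusted p = 0.713; 95% interval -0.11 to 0.31). The carrier Slc25a20 differed by -0.08 ± 0.10, Cpt2, which returns the chain to coenzyme A inside, by 0.25 ± 0.14, and the acetyltransferase Crat by 0.02 ± 0.10. Other probes gave -0.04 for Cpt1a and 0.06 for Cpt2. In all 4 genes the KO3 array was the highest of the KO arrays.

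The acyl-CoA dehydrogenases open each round of the mitochondrial cycle and are named by the chain lengths they take. Acadl read -0.22, -0.35, -0.11 and -0.14 across the WT arrays, in order, and 0.27, 0.06, 0.17 and 0.32 across the KO arrays. All 4 KO arrays lay above all 4 WT arrays, with KO2 nearest to WT3. The difference of 0.41 ± 0.09 had a 95% interval of 0.21 to 0.61. Acadm, for medium chains, differed by 0.29 ± 0.12 (adjusted p = 0.308), Acadvl, for very long chains, by 0.17 ± 0.10 (adjusted p = 0.483) and Acads, for short chains, by -0.10 ± 0.14 (adjusted p = 0.799). Acadl was the only member of the 4 to pass, and whether its difference exceeds that of the other 3 was not tested.

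The raw red signal behind Acadl, which is not adjusted for the brightness of each array, did not separate the groups. The raw green signal of Acadl was lower on KO2 to KO4 than on WT2 to WT4. Red signal was 1098.5 to 1594 units on WT2 to WT4 and 898 to 1768 units on KO2 to KO4. Green signal, from the same WT1 RNA on every array, was 552.5, 632 and 676 units on WT4, WT3 and WT2 and 475, 477 and 475 units on KO2, KO3 and KO4. After quantile normalization of the green channel of these 6 arrays, Acadl was lower in KO by a log2 difference of -0.11, where the median of all genes was -0.00 and the quartiles were -0.06 and 0.05. The part of this reference signal in the ratio's difference was not tested, but with the red channel alone on these 6 arrays Acadl differed by 0.22 ± 0.09 (adjusted p = 0.31). For Hao2 the green difference was -0.07 and the red difference 0.63 ± 0.19 (adjusted p = 0.17).

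The electron transfer flavoprotein accepts the electrons of these dehydrogenases. Its subunit genes Etfa and Etfb differed by 0.08 ± 0.11 and 0.07 ± 0.09, and Etfdh, the oxidoreductase that hands the electrons to ubiquinone, by 0.22 ± 0.11 (adjusted p = 0.398). The other Etfa probe gave -0.05. None of the 3 passed.

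In the later steps of the cycle, Hadhb, the thiolase subunit of the mitochondrial trifunctional protein, had ratios of -0.29, -0.28, 0.08 and -0.06 in WT and 0.24, 0.07, 0.05 and 0.21 in KO. WT1 and WT2 were low, while WT3 lay among the KO arrays. The difference was 0.28 ± 0.10 (adjusted p = 0.222). Hadha, the other subunit of the same complex, differed by 0.02 ± 0.11, the short-chain dehydrogenase gene Hadh by 0.15 ± 0.11 and the thiolase gene Acaa2 by -0.03 ± 0.10. The 5 isomerase and reductase genes that fit unsaturated chains into the cycle had differences from 0.04 (Eci1) to 0.26 (Eci2), with 0.05 for Decr1, 0.09 for Pecr and 0.15 for Ech1. The other Decr1 probe gave -0.05, the opposite sign. No gene of these groups passed, and the lowest adjusted p among the 5 was 0.368, that of Eci2.

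The peroxisomal enzymes held the strongest called gene. Hao2 oxidises hydroxy acids in peroxisomes and is found chiefly in kidney and liver. Its ratios were -0.18, -0.58, -0.11 and -0.80 in WT1 to WT4 and 0.34, -0.03, 0.55 and 0.43 in KO1 to KO4. The groups did not overlap, with KO2 closest to the WT arrays and WT4 the lowest of all. The difference of 0.74 had a 95% interval of 0.39 to 1.09. It exceeded the spread within WT by little, since the 4 WT arrays covered 0.70 and the 4 KO arrays 0.58. The Hao2 probe was well above background on 7 arrays, all but WT1, and so was that of Acadl.

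Ehhadh, the bifunctional enzyme of the peroxisomal cycle and a known PPAR alpha target, had ratios of -0.18, 0.01, 0.33 and 0.23 in WT and 0.22, 0.44, 0.45 and 0.60 in KO. The KO arrays were mostly the higher, but KO1 lay below WT3 and WT4. The difference was 0.33 ± 0.12 (adjusted p = 0.216). Hsd17b4, the other bifunctional enzyme, which serves branched chains, had ratios of -0.24, -0.09, 0.11 and -0.04 in WT and 0.24, 0.12, 0.16 and 0.12 in KO. Here the groups did not overlap, by a narrow gap between WT3 and KO4, yet the difference of 0.22 ± 0.09 did not pass (adjusted p = 0.277).

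Scp2, the sterol carrier protein and thiolase, also separated the groups while differing by 0.09 ± 0.08 (adjusted p = 0.68). Its ratios were -0.10, -0.09, -0.07 and -0.11 in WT and -0.04, -0.06, -0.00 and 0.08 in KO, so that the whole WT group covered 0.04. The other Scp2 probe gave 0.09. Ephx2, the soluble epoxide hydrolase, differed by 0.24 ± 0.13, the thiolase gene Acaa1a by 0.10 ± 0.10, the lyase gene Hacl1 by 0.08 ± 0.15 and Cat, the catalase gene, by 0.07 ± 0.09, where the other Cat probe gave 0.0017. Acaa1a has a close copy, Acaa1b, whose transcripts its probe may share, and the Acaa1b probe gave 0.15 ± 0.15. All 8 genes of this role had differences above 0, and 1 of them passed.

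Of the peroxisome's own machinery, Abcd3, a transporter of the peroxisomal membrane, had ratios of -0.34, -0.23, -0.04 and -0.10 in WT and 0.13, 0.02, -0.04 and 0.09 in KO. WT3 and KO3 were nearly equal, and the groups were apart by that margin alone. The difference was 0.23 ± 0.09 (adjusted p = 0.25), and its sign turned with the red channel alone on 6 arrays (-0.01). The import receptor gene Pex5 differed by 0.20 ± 0.11 and Pex11a, which acts in peroxisome division and responds to PPAR alpha, by 0.21 ± 0.14. In all, 5 of the 33 genes had groups that did not overlap, each higher in KO (15.2%, against 6.81% of all genes in that direction and 2.46% in the other), namely Hao2, Acadl, Hsd17b4, Scp2 and Abcd3.

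Acot12, an acetyl-CoA thioesterase, was not tested. Its probe was well above background on WT1 and KO1 alone, the arrays with raised red background, where it read 6779 and 825 units. On the other arrays it read 58 to 73 units, about the level of the negative-control spots, so that Acot12 was not well above background in either group there.

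**Figure D2:**
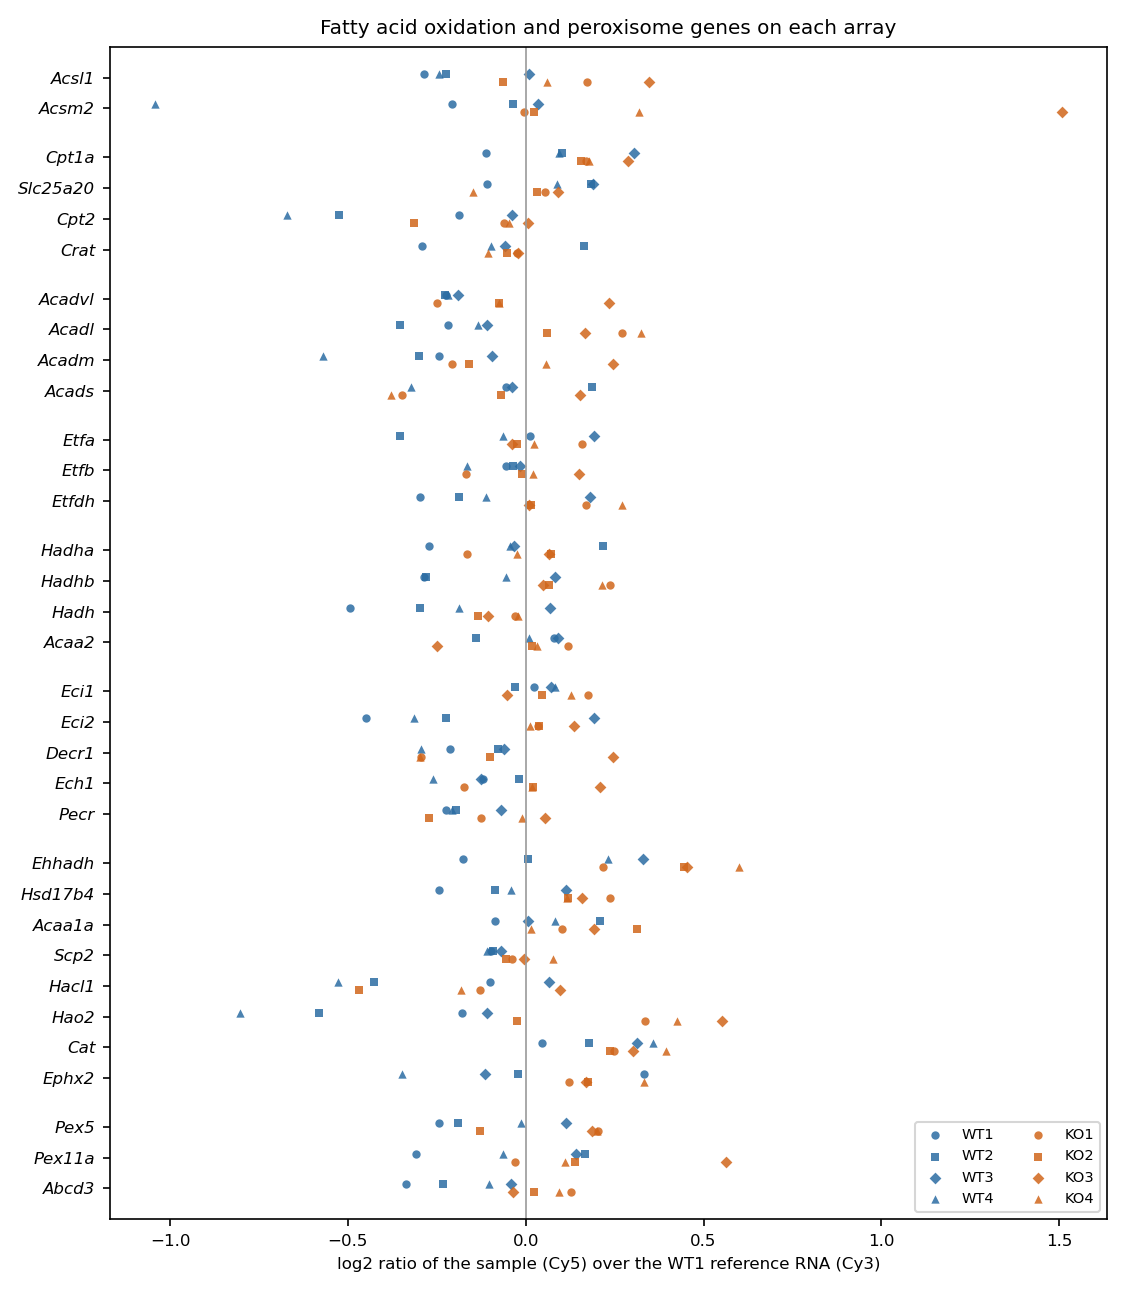
Each symbol is the log2 ratio of a gene on an array over the WT1 reference RNA (x axis), blue for the 4 WT and orange for the 4 KO arrays, with a marker shape for each replicate number. Acsm2 on WT4 (-1.04) and on KO3 (1.51) lies far from the rest, Hao2 and Acadl keep the colours apart, and on each array between 24 and 31 of the 33 genes lie within 0.3 of 0.

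Between arrays the 33 genes moved by little. Their median log2 ratio was -0.21, -0.09, 0.01 and -0.11 on WT1 to WT4 and 0.05, 0.02, 0.15 and 0.06 on KO1 to KO4. The KO medians lay above the WT medians, and the gap between WT3 and KO2 was about 0.01. KO3 was the highest KO array in 17 of the 33 genes (51.5%, against 31.1% of all genes) and WT4 the lowest WT array in 11 (33.3%, against 18.4%). Genes missing a value on any array stayed in the total of all genes but were not counted. The 31.1% and 18.4%, here and below, are therefore minimum shares. The median difference of the genes was 0.09 without KO3, 0.13 without WT4 and 0.13 without WT1 and KO1, where that of all genes was 0.04, 0.04 and 0.02.

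Markers of the proximal tubule moved with the same arrays. Of 40 markers 37 were tested, of which 36 had a difference above 0 (97.3%, against 59.3% of all genes). In limma 2 rose (5.41%, against 1.57% of all genes). They were Cyp2e1, a cytochrome P450 (2.24 ± 0.26, SE; adjusted p = 0.00157), and Nat8, an acetyltransferase gene (1.41 ± 0.26; adjusted p = 0.0179). Slc7a7, an amino acid transporter gene, differed by 0.50 ± 0.12 (adjusted p = 0.0508). The call of Nat8 was lost without WT1 (adjusted p = 0.0522), WT4 (0.0584) or KO4 (0.0707). The marker median was -0.08, -0.20, -0.16 and -0.65 on WT1 to WT4 and -0.06, -0.11, 0.59 and 0.21 on KO1 to KO4. WT4 was thus the lowest and KO3 the highest. WT4 was the lowest WT array for 35 of the 37 markers (94.6%, against 18.4% of all genes). KO3 was the highest KO array for 32 (86.5%, against 31.1%). The pattern was not confined to this list. Of 14 collecting duct markers WT4 was the lowest WT array for 10 and KO3 the highest KO array for 11, with list medians of -0.50 and 0.17 there. Of 10 podocyte markers the counts were 5 and 8. Hao2 and Acsm2 had these extremes too, while for Acadl WT2 was the lowest and KO4 the highest. Markers of other kidney cells differed as well. As a background for the counts of the marker lists, 1.57% of all genes were called higher and 0.543% lower. Of 15 nephron progenitor markers 9 fell (median -0.55) and of 10 markers of committing nephrons 6 fell (median -0.54), while none of either list rose. Of 12 stromal markers 5 rose (median 0.45) and of 11 macrophage and leukocyte markers 5 rose (median 0.37), and none fell. Among the 14 collecting duct markers 3 rose, namely Fxyd4 (0.79), Slc26a4 (0.76) and Krt19 (0.54), and none fell (median 0.08). Sox17 (0.43) was the 1 call, a rise, among 10 endothelial markers (median 0.09). Sim2 (-0.73) was the 1 call, a fall, among 11 markers of Henle's loop and distal tubules (median -0.09). The array medians of the progenitor, committing nephron, stromal, and macrophage and leukocyte lists did not overlap between groups, while those of the other kidney lists did. Stroma ran from -0.15 to 0.01 in WT and from 0.24 to 0.46 in KO. The part of tubule content, or of the other cell types, in the differences of the oxidation genes was not tested.

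Other tissues that burn fatty acids were looked for by their markers. Of 10 fat markers 3 passed the filter and none was called (limma; none had an unadjusted p under 0.05). The brown fat gene Ucp1 was above background on 2 arrays, Adipoq on 1 and Lep on none, while Dio2 was on 6 and Adrb3 and Retn on 7 each. Of 10 muscle markers 5 passed, with a median difference of 0.33 and 4 of them above 0. Tnnt3, a troponin gene, rose by 0.77, while the myosin genes Myh6 (0.38) and Myh7 (0.33) were not called. Ckm and Mb were above background on 1 array each. Of 10 liver markers 5 passed, with a median difference of 0.77 and 3 of them above 0. Afp was higher by 0.89 and Fgb lower by a difference of -0.50. Ttr (0.99 ± 0.25) and Serpina1a (0.77 ± 0.47) were not called, and Alb was above background on 1 array. The call of Fgb was lost without WT1 (adjusted p = 0.0628), WT2 (0.0716), WT4 (0.066), KO2 (0.0622), KO3 (0.0556) or KO4 (0.0963).

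**Figure D3:**
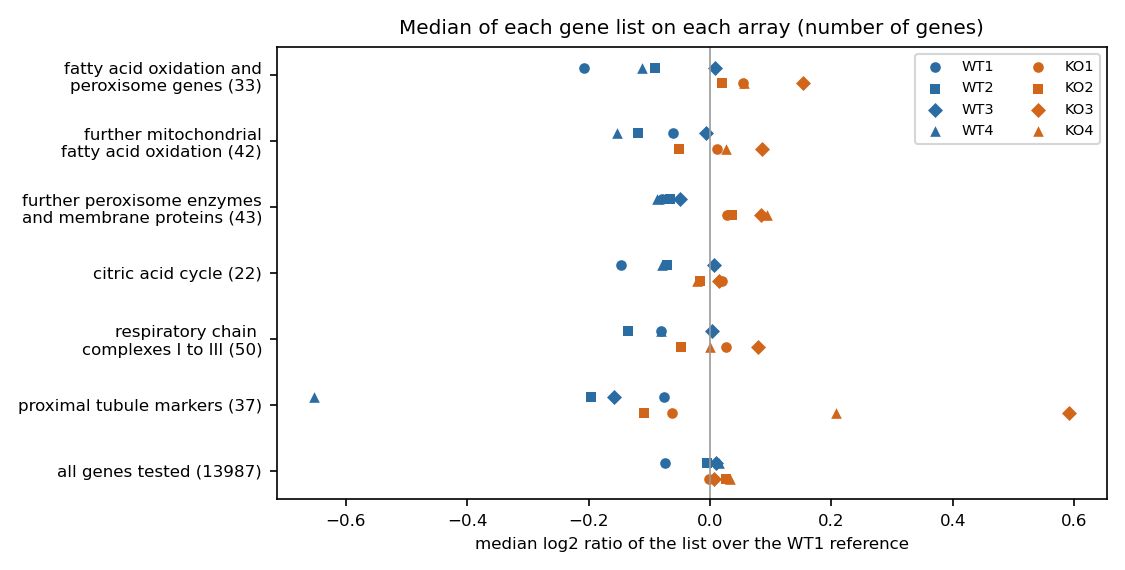
Each symbol is the median log2 ratio (x axis) of a gene list on an array, blue for WT and orange for KO, with the number of genes tested in brackets. The oxidation and peroxisome genes stay between -0.21 and 0.15, whereas the proximal tubule markers run from -0.65 on WT4 to 0.59 on KO3.

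The other genes of the pathway, listed by role, gave few calls. Of 42 further genes of mitochondrial fatty acid oxidation none passed in limma, with 10 higher and 1 lower at an unadjusted p under 0.05. Of all genes 11.1% were higher and 3.37% lower by that measure, as a background for the counts of these lists. The median of the 42 genes was 0.13. Acsm1, a synthetase closely related to Acsm2, had the lowest p value (1.00 ± 0.28, SE; adjusted p = 0.103). Of 43 further peroxisomal genes none passed either, with 12 higher and none lower at an unadjusted p under 0.05, and a median of 0.15. Here Acox2, the oxidase of branched chains and bile acid precursors, had 0.95 ± 0.23 (adjusted p = 0.0517) and Slc27a2, a transporter and very-long-chain synthetase, 0.77 ± 0.19 (adjusted p = 0.0662). Among 13 peroxins, which build the organelle, the median was 0.04 and none passed. Pex26 and Pex19 had the lowest p values (0.21 ± 0.09 and 0.19 ± 0.11; adjusted p = 0.27 and 0.478), and 1 peroxin had an unadjusted p under 0.05.

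None of 24 regulators of these genes passed in limma. At an unadjusted p under 0.05, 2 were higher and 1 lower, where all genes gave 11.1% and 3.37%, and the median was -0.03. Esrrb, an orphan receptor, differed by -0.55 ± 0.14 (adjusted p = 0.0688) and the coactivator gene Ncoa1 by 0.31 ± 0.10 (adjusted p = 0.164). Named after their values were seen, Ppara differed by 0.25 ± 0.13 (adjusted p = 0.413), the coactivator gene Ppargc1a by -0.12 ± 0.13 and the tubular factor gene Hnf4a by 0.11 ± 0.11. Of 16 PPAR targets outside the oxidation pathway 2 rose (12.5%, against 1.57% of all genes) and none fell (0.543% of all genes), with a median of 0.08. Vnn1, a pantetheinase that releases a building block of coenzyme A, rose by 0.66 ± 0.11 (adjusted p = 0.0114), with ratios of 0.02, -0.24, -0.07 and -0.35 in WT and 0.27, 0.66, 0.61 and 0.47 in KO. Pdk4, the kinase that turns pyruvate oxidation down when fat is burnt, rose by 0.49 ± 0.10 (adjusted p = 0.0247), from -0.13, -0.39, -0.12 and -0.26 to 0.15, 0.18, 0.47 and 0.26. Both had groups without overlap. Without each array in turn Vnn1 kept its call, whereas Pdk4 lost it without WT2 (adjusted p = 0.0761), WT4 (0.0755), KO2 (0.0526), KO3 (0.0556) or KO4 (0.0923).

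For comparison, 22 genes of the citric acid cycle had a median of 0.06 and 50 genes of respiratory chain complexes I to III a median of 0.10. None passed in limma, where 1 and 9 genes were higher and none lower at an unadjusted p under 0.05. Sdha, a subunit that both lists hold, differed by 0.25 ± 0.10 (adjusted p = 0.257), Fh1, the fumarase gene, by -0.50 ± 0.23 (adjusted p = 0.346), Ndufb6 by 0.28 ± 0.09 (adjusted p = 0.166) and Uqcrfs1 by 0.33 ± 0.12 (adjusted p = 0.2). Of 14 genes of fatty acid synthesis 1 rose in limma (7.14%, against 1.57% of all genes). It was Me1, a malic enzyme that supplies NADPH (0.51 ± 0.12; adjusted p = 0.0458). Me1 lost its call without any 1 array except WT3 (adjusted p up to 0.163, without KO4). The median of that list was 0.06. Whether the oxidation genes differ from these lists was not tested.

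The calls of Hao2 and Acadl lay close to the threshold and depended on the arrays and on the processing. Without each of the 8 arrays in turn the Hao2 difference ranged from 0.61 to 0.86 and that of Acadl from 0.36 to 0.46. Hao2 passed without WT3 (adjusted p = 0.0336) and without KO2 (0.0312). It did not pass without WT1 (0.0572), WT2 (0.0998), WT4 (0.0931), KO1 (0.0554), KO3 (0.0773) or KO4 (0.13). Acadl passed in none of the 8, with adjusted p values of 0.0829 without WT1, 0.122 without WT2, 0.0542 without WT3 and 0.0817 without WT4. The values were 0.0807 without KO1, 0.0569 without KO2, 0.0695 without KO3 and 0.172 without KO4.

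Without both arrays of raised background, Hao2 differed by 0.82 ± 0.20 (adjusted p = 0.0834) and Acadl by 0.38 ± 0.11 (adjusted p = 0.13). In that fit 1.26% of all genes were called higher and 0.5% lower. With sex as a model term, where WT2 was the one male WT array, the differences were 0.90 ± 0.26 (adjusted p = 0.232) and 0.56 ± 0.14 (adjusted p = 0.189), with 0.0286% of all genes called higher and 0.0572% lower. With the replicate number as a block both passed (adjusted p = 0.00942 and 0.0226), among 3.17% of all genes called higher and 0.794% lower. Across 23 other ways of processing, Hao2 passed in 8 and Acadl in 5, and the difference was above 0 in each of them for both genes.

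**Figure D4:**
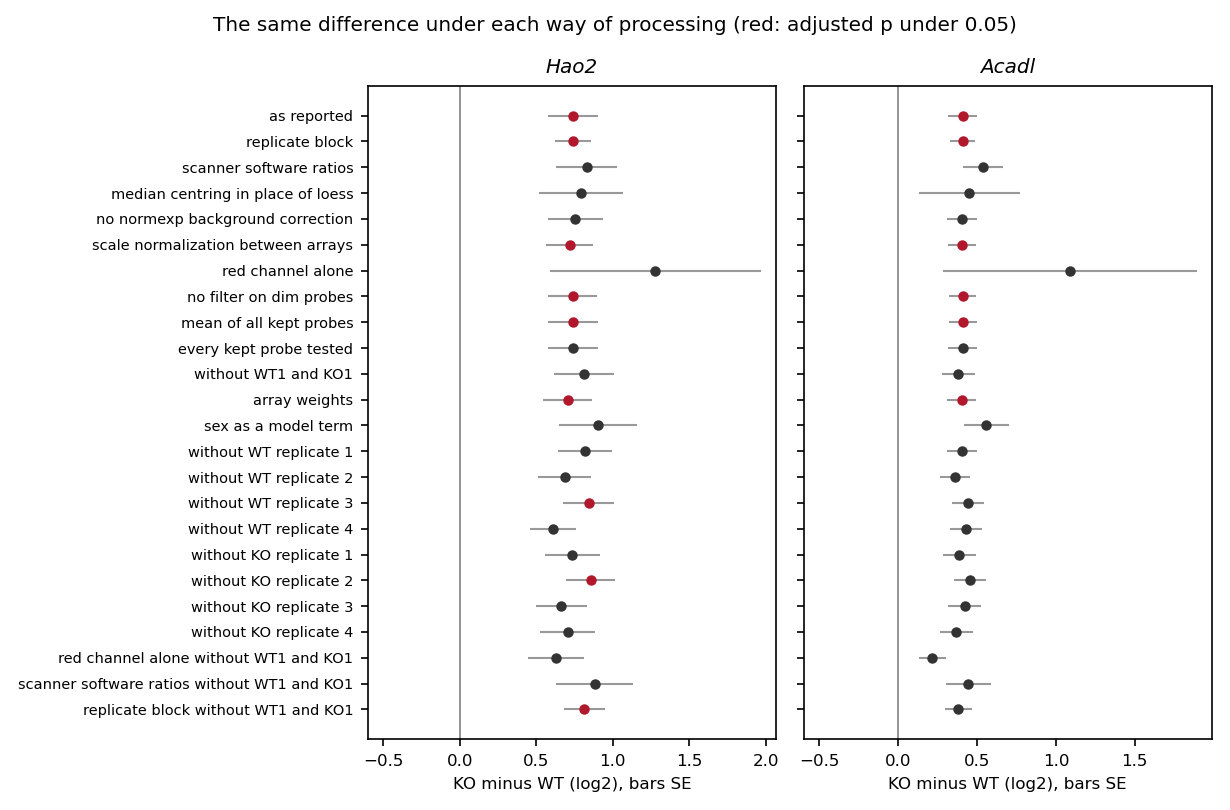
For Hao2 (left) and Acadl (right) each point is the KO minus WT difference (log2, x axis) under a way of processing or with arrays left out, with its SE as a bar, and red marks an adjusted p under 0.05. Every point lies above 0, from 0.61 to 1.28 for Hao2 and from 0.22 to 1.09 for Acadl, and most are not red.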

How the data were processed

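Per the labels, total RNA of 8 kidney pairs was amplified, labelled with Cy5 and hybridised with Cy3-labelled WT1 RNA on every array, with no dye swap. Scans were quantified with Agilent Feature Extraction 10.7.3.1, which both the submitters' processing notes and the deposited headers name. Its median spot signals are intensity values on a linear scale without normalization, per the file headers. The deposited ratio column is a log10 value, red over green after the software's own dye step, per the file headers, and the deposited table of the whole series held the same log10 ratios to within 0.005. Other deposited columns are flags of 0 or 1 for each spot.

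In R 4.3.3 with limma 3.58.1, the background was handled by normexp (offset 50) on median signals, followed by loess inside each array, control spots at weight 0. Readings marked as outliers (1765, 0.372%) were left out, no spot was saturated, and spots of a probe were averaged. Probes well above background in red on at least 4 arrays were kept. Accessions without version were matched to RefSeq names of GRCm38.p6 (27509 of 55681 probes), whose coordinates were not set against the array's own build. Of several kept probes of a gene, the brightest on average was used. The 13987 genes were fitted with lmFit and eBayes on log2 ratios over all 8 arrays without covariates, and p-values were adjusted by Benjamini-Hochberg. The fit was tested on simulated data.

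The members, lists and tests were chosen with earlier results of these data known. Every member is accounted for, and array values are given for those past the threshold, the 8 with the smallest p and those whose groups do not overlap. From each wider list the called members, or else the 2 with the smallest p, are named, and from the proximal tubule markers the 3 with the smallest p. One gene that this rule names is not reported here. Same-numbered WT and KO arrays deviated from their group means together (r = 0.14, 0.37, 0.26 and 0.30 across genes) and shared a slide column. The numbers may therefore pair the arrays, although WT4 also went with KO1 (r = 0.37) and WT2 with KO3 (r = 0.31). The reported fit did not use this pairing, which entered only in the alternatives with a replicate block.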

Additional observations from a re-analysis of the deposited data

Results flagged for a closer look

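Among 66 groups of 4 arrays (33 genes in WT and in KO), 2 held an array set apart from the other 3 by Dixon's criterion at 95%, and chance alone gives about 1 in 20. In KO, Cpt1a was 0.29 on KO3, with the other 3 KO arrays between 0.15 and 0.18. Pex5 was -0.13 on KO2, with the other 3 KO arrays between 0.19 and 0.20.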

How the results depend on the processing

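Hao2 and Acadl stayed above 0 under every alternative that could test them. Of 787 differences of members under an alternative, 718 kept their direction and side of the threshold, 33 (all of Hao2 or Acadl) lost the call and 36 changed sign, none of them called. Among all genes 220 were higher and 76 lower, and among members 2 and 0. No member was called with scanner software ratios (73 genes higher, 50 lower), median centring (0 and 0), the red channel alone (0 and 1) or a sex term (4 and 8). The same held with no normexp correction, every kept probe tested, without WT1 and KO1, or with a filter on all 8 arrays, which leaves out Hao2 and Acadl. Array weights gave 363 higher. The replicate block gave 443 higher and the same 2 members, and it changed no other member's call. The member median was 0.49 with the red channel alone, where that of all genes was 0.22 (0.03 in the reported fit). Leaving out each array gave 0 to 1 members, 51 to 263 genes higher, 32 to 82 lower and a member median of 0.09 to 0.18. Alternatives chosen after seeing the data left out WT1 and KO1 together with the red channel alone (0 members, 98 genes higher, 47 lower, member median 0.070, all genes -0.016), software ratios (0, 38 and 27) and the block (1, 398 and 121).

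Signs turned for Crat with software ratios (-0.15), Acaa2 with median centring (0.045), and, with the red channel, Slc25a20 (0.26), Acads (0.50), Etfb (-0.012) and Acaa1a (-0.0090). Without WT1 and KO1, with or without the block, Crat was -0.062 and Hadha -0.0097. Array weights gave -0.024 for Crat, -0.0068 for Hadha, 0.0090 for Acaa2 and -0.028 for Decr1. The sex term gave -0.21 for Crat, -0.23 for Hadha, 0.12 for Acaa2, -0.035 for Decr1 and -0.053 for Acaa1a. On the 6 arrays the red channel gave -0.031 for Crat, 0.015 for Acads, -0.054 for Eci1, -0.051 for Acaa1a and -0.012 for Abcd3, and software ratios gave -0.26 for Crat, -0.013 for Hadha and -0.047 for Eci1. Leaving out each array gave -0.054 to 0.098 for Crat, -0.060 to 0.10 for Hadha, -0.017 to 0.16 for Etfa, -0.017 to 0.18 for Hacl1, -0.080 to 0.047 for Acaa2 and -0.069 to 0.11 for Decr1. The cause was not tested.

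Signal limits Acot12, and the probes of Acadl, Hao2, Acsm2, Crat and Ephx2 were not well above background on WT1.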
